A study of Mus musculus with 8 samples.

Results

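Adipocyte genes were followed in the lungs of untreated Scgb3a2-transgenic and wild-type mice. The 10 genes were Fabp4, Adipoq, Car3, Cfd, Plin1, Retn, Cidec, Lep, Ucp1 and Cidea, out of 20920 genes with a symbol on the arrays, and they were taken as every probe that the authors' annotated matrix names for them. This gave 13 probes, and all 13 were well above background often enough to be tested. The genes were chosen by measured values of these same data, namely the lower log2 ratios of Fabp4, Car3 and Adipoq in transgenic lungs, so the genotype differences below are a description and carry no p-value. The question put to the data was whether white adipocyte markers (Adipoq, Retn and Lep) and brown adipocyte markers (Ucp1 and Cidea) varied together from lung to lung.

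White adipocytes store triglyceride in a single large droplet and secrete hormones, whereas brown adipocytes burn fat in mitochondria to make heat. Fat lies around the airways, vessels and lymph nodes near the heart and lung root, and some of it can come along when a lung is dissected. Several of the 10 genes are not restricted to fat. Fabp4 is also made by capillary endothelium and macrophages, Cfd by other cell types, and Car3 by slow skeletal muscle. In RNA from whole tissue, fewer cells of a type and less RNA per cell cannot be told apart.

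The data came from 8 two-color arrays, 4 from wild-type and 4 from transgenic lungs. All mice were untreated C57BL/6 males of 8 to 10 weeks by the labels, while the methods give about 8 weeks. The transgenic mice carried a mouse Scgb3a2 cDNA driven by the human SP-C promoter, which is active in alveolar type II cells, and came from a single founder line. RNA of 1 mouse was labeled with Cy5 and a pool of lung RNA with Cy3 on every array, without a dye swap, so each value below is a log2 ratio of a lung over the pool. By the methods the pool held equal shares of RNA of the samples. Cidec, Lep and Ucp1 nevertheless lay above the pool on all 8 arrays. The part of the dyes in this was not tested, so a value's place above or below the pool is not read as a level. Each of 4 slides held 1 array of each genotype, and the slides were scanned on 2 days. Between 32257 and 34709 probes per array were well above background. The number of arrays limits the precision. Replicates were separate mice by the design, and the labels give no further detail on them. Scgb3a2 itself was between -0.56 and 0.58 in wild-type and between 0.47 and 1.26 in transgenic lungs, a log2 difference of 0.88 (SE 0.24, n = 4 and 4), with wild-type replicate 3 above transgenic replicate 2. The surfactant and other lung markers were well above background on all 8 arrays.

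For 7 of the 10 genes the 300 bases around the gene start (250 before and 50 after) were found in RefSeq's promoters of GRCm38.p6. The windows of Adipoq, Retn, Lep and Ucp1 are given because these are the markers compared below, 3 of white and 1 of brown fat. Capitals mark the motifs TTGCGCAA (a full C/EBP site), AGGTCA (a nuclear receptor site in its single-arm form), CCAAT (the CCAAT box) and the TATA box, written as TATAAA or in its variant form as TATATA, each searched on both strands. The windows lie on the plus strand at chr16:23146286-23146585 (Adipoq), chr8:3655520-3655819 (Retn), chr6:29059971-29060270 (Lep) and chr8:83290098-83290397 (Ucp1).
Adipoq: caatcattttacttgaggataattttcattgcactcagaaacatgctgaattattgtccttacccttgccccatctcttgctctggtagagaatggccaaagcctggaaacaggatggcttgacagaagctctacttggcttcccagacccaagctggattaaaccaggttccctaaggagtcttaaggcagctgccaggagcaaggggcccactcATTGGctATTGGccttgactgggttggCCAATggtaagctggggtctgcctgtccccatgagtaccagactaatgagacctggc
Retn: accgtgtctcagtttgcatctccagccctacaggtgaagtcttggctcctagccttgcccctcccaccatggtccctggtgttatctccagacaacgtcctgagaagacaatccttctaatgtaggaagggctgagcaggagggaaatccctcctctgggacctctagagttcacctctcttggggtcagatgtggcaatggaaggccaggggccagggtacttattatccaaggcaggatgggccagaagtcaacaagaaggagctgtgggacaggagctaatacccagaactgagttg
Lep: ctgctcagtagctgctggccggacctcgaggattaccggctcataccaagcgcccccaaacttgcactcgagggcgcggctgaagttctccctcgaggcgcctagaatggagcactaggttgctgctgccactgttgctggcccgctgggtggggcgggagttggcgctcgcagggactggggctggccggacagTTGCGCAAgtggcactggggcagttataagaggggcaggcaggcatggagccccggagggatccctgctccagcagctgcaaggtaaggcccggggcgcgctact
Ucp1: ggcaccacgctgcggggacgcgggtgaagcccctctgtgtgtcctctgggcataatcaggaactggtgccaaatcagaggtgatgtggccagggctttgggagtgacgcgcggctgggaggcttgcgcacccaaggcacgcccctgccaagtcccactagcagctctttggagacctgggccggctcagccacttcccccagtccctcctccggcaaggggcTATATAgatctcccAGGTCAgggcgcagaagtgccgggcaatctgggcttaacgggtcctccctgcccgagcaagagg
The Lep window held TTGCGCAA, which 0.183% of 32851 RefSeq promoter windows hold. The Adipoq window held CCAAT or its reverse complement 3 times, a motif found in 37.4% of windows. The Ucp1 window held TATATA (5.67% of windows) and AGGTCA (16.3%). The Retn window held none of these letters, and TATAAA (13.6% of windows) was in none of the 4.

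Adipoq, which encodes the hormone adiponectin, stood at 1.20, 0.47, 0.95 and 0.83 in wild-type replicates 1 to 4. In transgenic replicates 1 to 4 it stood at 0.25, 0.00, 0.49 and -0.84. The groups overlapped only through wild-type replicate 2 and transgenic replicate 3. The difference was -0.89 (SE 0.25), or 1.85-fold lower in transgenic lungs.

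Car3, a carbonic anhydrase abundant in fat and slow muscle, was 1.47, 0.51, 1.75 and 0.67 in the wild-type lungs. It was 0.05, -0.21, 0.52 and -1.28 in the transgenic lungs. Here too only wild-type replicate 2 and transgenic replicate 3 overlapped. The difference was -1.33 (SE 0.36), or 2.51-fold lower. A dimmer Car3 probe gave a difference of -0.23 (SE 0.17), and the deviations of both probes from their genotype means correlated with r = 0.618 over 8 arrays.

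Fabp4, a fatty acid carrier, was 1.24, 0.16, 0.33 and 0.45 in wild-type lungs. In transgenic lungs it was -0.10, -0.22, 0.44 and -1.39. Transgenic replicate 3 lay among the wild-type values and transgenic replicate 4 far below the rest. The difference was -0.87 (SE 0.34), or 1.82-fold lower. The dimmer Fabp4 probe gave -1.14 (SE 0.35) without overlap, but its value for transgenic replicate 3 was missing through an outlier flag and that difference rests on 3 transgenic values. Another Fabp4 probe, named only through RefSeq, was flagged on 5 of 8 arrays.

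Cfd, which encodes the complement protease adipsin, was 1.36, 0.49, 1.43 and 0.39 in wild-type lungs. It was 1.09, 0.08, 0.88 and -1.43 in transgenic lungs. The groups overlapped broadly and transgenic replicate 4 alone lay below the pool. The difference was -0.76 (SE 0.47).

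Plin1, the coat protein of the lipid droplet, kept to 0.32 to 0.47 in wild-type lungs. Its transgenic values were 0.33, 0.22, 0.35 and -0.12, a difference of -0.21 (SE 0.12). Retn, which encodes the hormone resistin, was 0.46, 0.04, 0.33 and 0.30 in wild-type lungs. Its transgenic values were 0.23, -0.03, 0.22 and -0.45, a difference of -0.29 (SE 0.16). A second Retn probe gave -0.29 (SE 0.18). By the brightest probe of both genes transgenic replicates 2 and 4 lay below every wild-type array, replicate 4 the lower. Transgenic replicates 1 and 3 lay within the wild-type range. By the second Retn probe transgenic replicates 1 (-0.07) and 4 (-0.46) lay below the wild-type range and replicates 2 (0.12) and 3 (0.37) within it. The deviations of both Retn probes correlated with r = 0.750 over 8 arrays.

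Cidec, a lipid droplet protein of white fat, ranged from 0.34 to 1.65 in wild-type and from 0.21 to 0.88 in transgenic lungs, a difference of -0.48 (SE 0.24). Lep, which encodes leptin, stayed between 0.21 and 0.36 in wild-type and between 0.14 and 0.41 in transgenic lungs, a difference of -0.05 (SE 0.10). Transgenic replicates 2 and 3 lay below the wild-type range of Lep, transgenic replicate 1 above it and transgenic replicate 4 within it.

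Ucp1, the uncoupling protein of brown fat, was 0.33, 0.23, 0.41 and 0.51 in wild-type lungs. In transgenic lungs it was 0.57, 0.41, 0.66 and 0.43, a difference of 0.15 (SE 0.10) in the opposite direction to the white adipocyte genes. Cidea, a lipid droplet protein of brown fat, was 0.71, 0.12, 0.47 and 0.33 in wild-type lungs. It was 0.80, 0.21 and 0.15 in transgenic replicates 1, 2 and 4, and the flagged spot of replicate 3 was left out. The Cidea difference was -0.02 (SE 0.19).

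**Figure D1:**
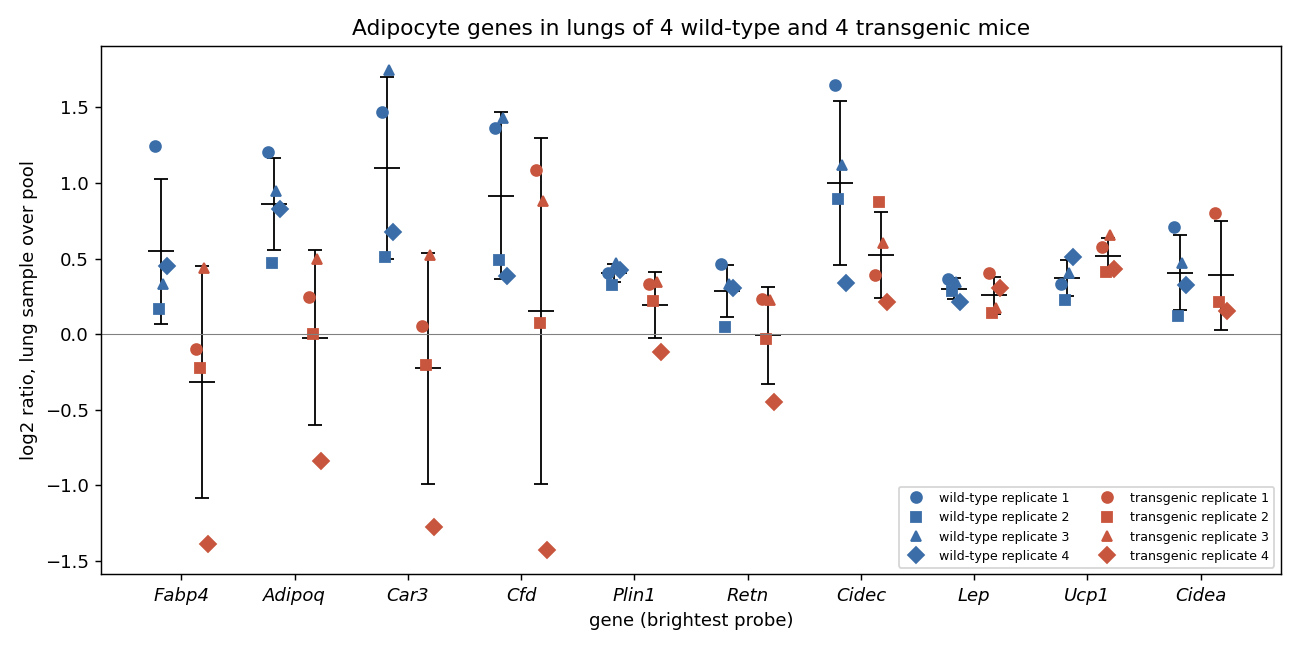
Log2 ratio of lung over pool (vertical axis) for the brightest probe of each adipocyte gene (horizontal axis). Points are single arrays, wild-type in blue and transgenic in red, and black bars show the mean and SD of each genotype (n = 4, for Cidea n = 3 transgenic). Transgenic replicate 4 lies lowest for 7 of the 10 genes, while Lep and Ucp1, both dim, vary little.

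By their brightest probes, 9 of the 10 genes had a lower mean in transgenic lungs, as had 49.6% of all 32645 probes tested. The groups of none of the 10 genes were separated, against 0.904% of all probes with every transgenic array below every wild-type array and 1.07% with every one above. No probe on the arrays passed an adjusted p of 0.05 with limma (0% of 32645), and 683 had an unadjusted p under 0.05, where chance alone would give 1632. More than 1.5-fold lower with an unadjusted p under 0.05 were 34 probes (0.104%), and 41 (0.126%) were higher.

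These differences moved with transgenic replicate 4. Without it the log2 difference became -0.61 for Adipoq, -0.98 for Car3, -0.51 for Fabp4, -0.23 for Cfd, -0.10 for Plin1, -0.14 for Retn and 0.10 for Cidea, and 8 of the 10 genes were lower. The first scan day, which included that array, gave -1.37 for Adipoq, -2.22 for Car3, -1.53 for Fabp4 and -1.56 for Cfd. The second day gave -0.40, -0.43, -0.20 and 0.04 for the same genes in the same order. Whether the scan day or the mice on it differed was not tested. Within slides, Adipoq, Car3, Fabp4, Plin1 and Retn were lower in the transgenic lung on 4 of 4 slides, Cfd, Cidec and Lep on 3 of 4, Cidea on 1 of 3 and Ucp1 on 0 of 4.

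**Figure D2:**
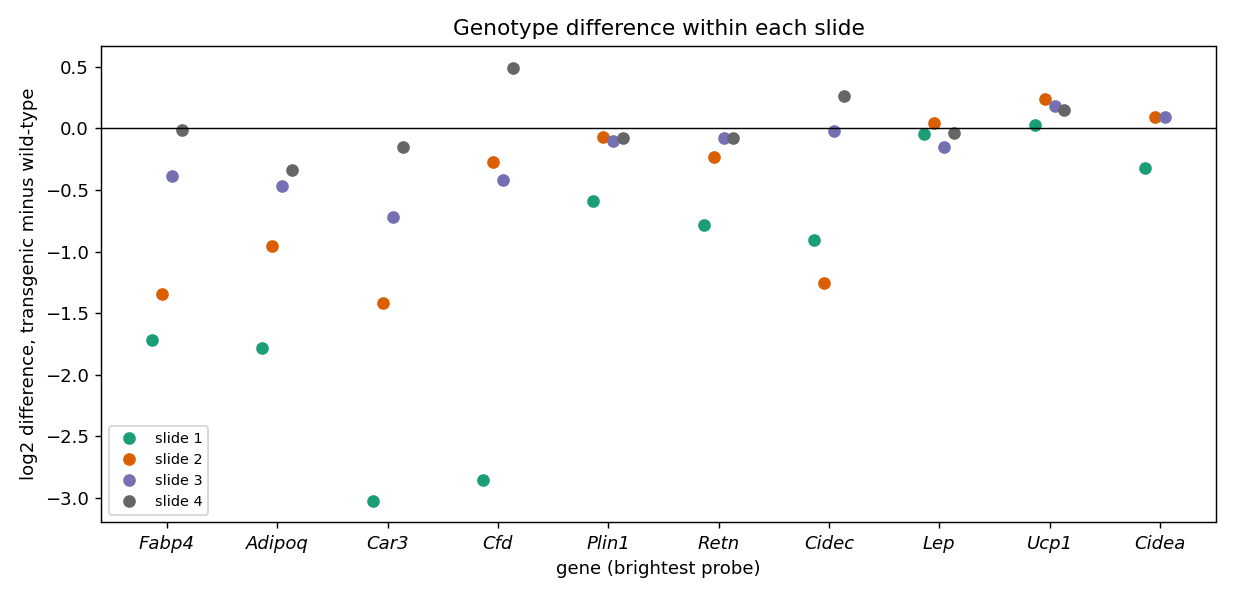
Log2 difference between the transgenic and the wild-type array of the same slide (vertical axis) for each adipocyte gene (horizontal axis), 1 point per slide. Slide 1, which carried transgenic replicate 4, holds the lowest point for Adipoq (-1.79), Car3 (-3.02) and Cfd (-2.85), and Ucp1 lies above 0 on all 4 slides.

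To see whether the genes varied together without using the genotype contrast, each value was expressed as a deviation from its genotype's mean. Adipoq and Retn followed each other closely (r = 0.982 over 8 arrays). Fabp4, Adipoq, Car3, Cfd, Plin1 and Retn formed 15 pairs with r between 0.811 and 0.982 and a median of 0.922. This group of 6 was put together after the correlations had been seen and is a description. Transgenic replicate 4 carried part of it, and without that array the median r of the 15 pairs was 0.749. Over 31240 tested probes with at least 7 values the median r with Adipoq was 0.05, and 98 probes (0.314%) reached 0.9.

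The other 4 genes had lower or wider ranges of r with these 6. Cidec had r of 0.251 to 0.568 with them, Lep -0.116 to 0.220 and Ucp1 0.449 to 0.642, while Cidea had 0.655 to 0.872 over 7 arrays. An r with Adipoq as high as that of Ucp1 was reached by 9.42% of probes, as high as that of Cidec by 17.3%, as high as that of Lep by 56.7% and as high as that of Cidea by 1.45%. Lep and Ucp1 were dim, at percentiles 21.5 and 27.2 of intensity. The pool channel was well above background for Lep on 5 and for Ucp1 on 7 of 8 arrays. A small spread of expression and a signal near the floor cannot be told apart for them. Each Lep value was also the average of several spots, and the part of this in its spread was not tested. Lep and Ucp1 had an SD within genotype at percentiles 10.3 and 18.3 of the tested probes. Fabp4, Car3, Cfd and Adipoq lay at percentile 98.2 or above in that SD.

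**Figure D3:**
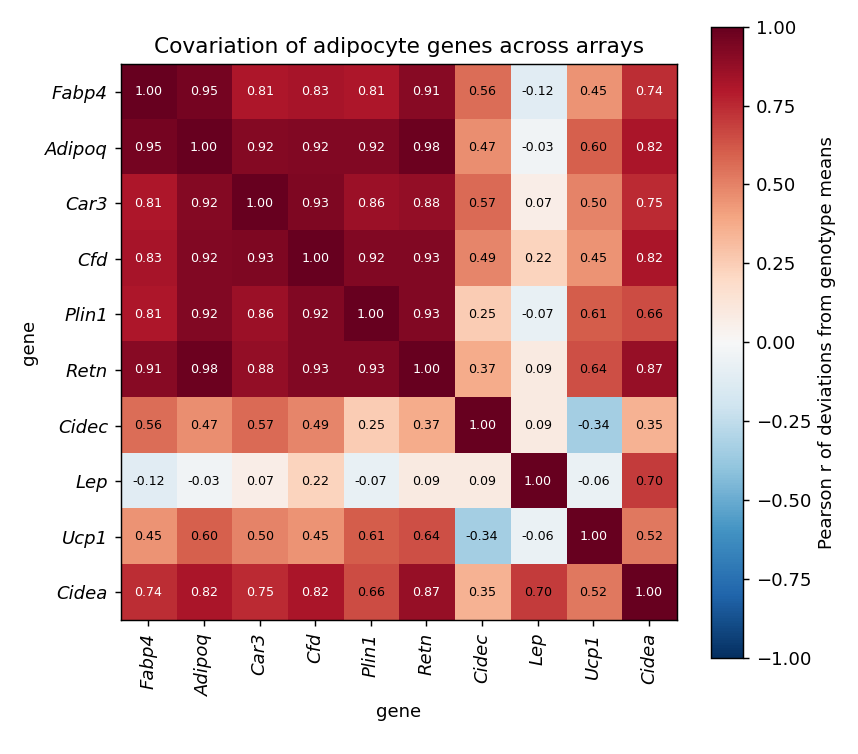
Pearson r between each pair of adipocyte genes (both axes), from deviations of 8 arrays (7 for Cidea) from their genotype means. Fabp4, Adipoq, Car3, Cfd, Plin1 and Retn form a block with r of at least 0.811, and Lep and Cidec lie outside it.

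Of the 6 pairs of a white with a brown marker, none passed after adjustment over the 6 pairs. Retn with Cidea had r = 0.872 (rho = 0.857, n = 7, two-sided exact permutation p = 0.0417, adjusted 0.208). Adipoq with Cidea had r = 0.819 (rho = 0.857, n = 7, exact permutation p = 0.0694, adjusted 0.208). Lep with Cidea had r = 0.698 (rho = 0.714, n = 7, exact permutation p = 0.194, adjusted 0.233). For these pairs the 144 arrangements within genotypes allow a p of 0.00694 at the least. Transgenic replicate 3 is missing from these pairs through the flagged Cidea spot. With flagged spots kept, r with Cidea was 0.749 for Retn, 0.644 for Adipoq and 0.656 for Lep. In the authors' matrix it was 0.678, 0.638 and 0.209 in the same order. These values moved with the processing too. In the sample channel alone Adipoq with Cidea had r = 0.266, Lep with Cidea had 0.207 from the scanner software's processed signals and 0.246 with normexp fitted on all spots, and Retn with Cidea ranged from 0.678 to 0.978 over 23 alternatives.

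Ucp1 gave lower values. Retn with Ucp1 had r = 0.642 (rho = 0.643, n = 8, exact permutation p = 0.125, adjusted 0.233). Adipoq with Ucp1 had r = 0.595 (rho = 0.476, n = 8, exact permutation p = 0.160, adjusted 0.233), and Lep with Ucp1 had r = -0.063 (rho = 0, n = 8, exact permutation p = 0.887). These values moved with the background correction. From the scanner software's processed signals r was 0.118 with Adipoq and 0.166 with Retn, and with no offset added it was 0.229 and 0.330.

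Leaving out the 2 arrays farthest from the median of the white marker left 6 arrays for pairs with Ucp1 and 5 for pairs with Cidea. On so few arrays these r values are a description. They were 0.895 for Adipoq with Ucp1, 0.836 for Adipoq with Cidea, 0.486 for Retn with Ucp1, 0.957 for Retn with Cidea, -0.105 for Lep with Ucp1 and 0.650 for Lep with Cidea. With the scan day as a further term r was 0.593, 0.924, 0.645, 0.964, -0.009 and 0.389 in the same order. Without the genotype term Adipoq with Ucp1 fell to -0.114. The brown markers themselves, Ucp1 and Cidea, had r = 0.525 over 7 arrays.

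**Figure D4:**
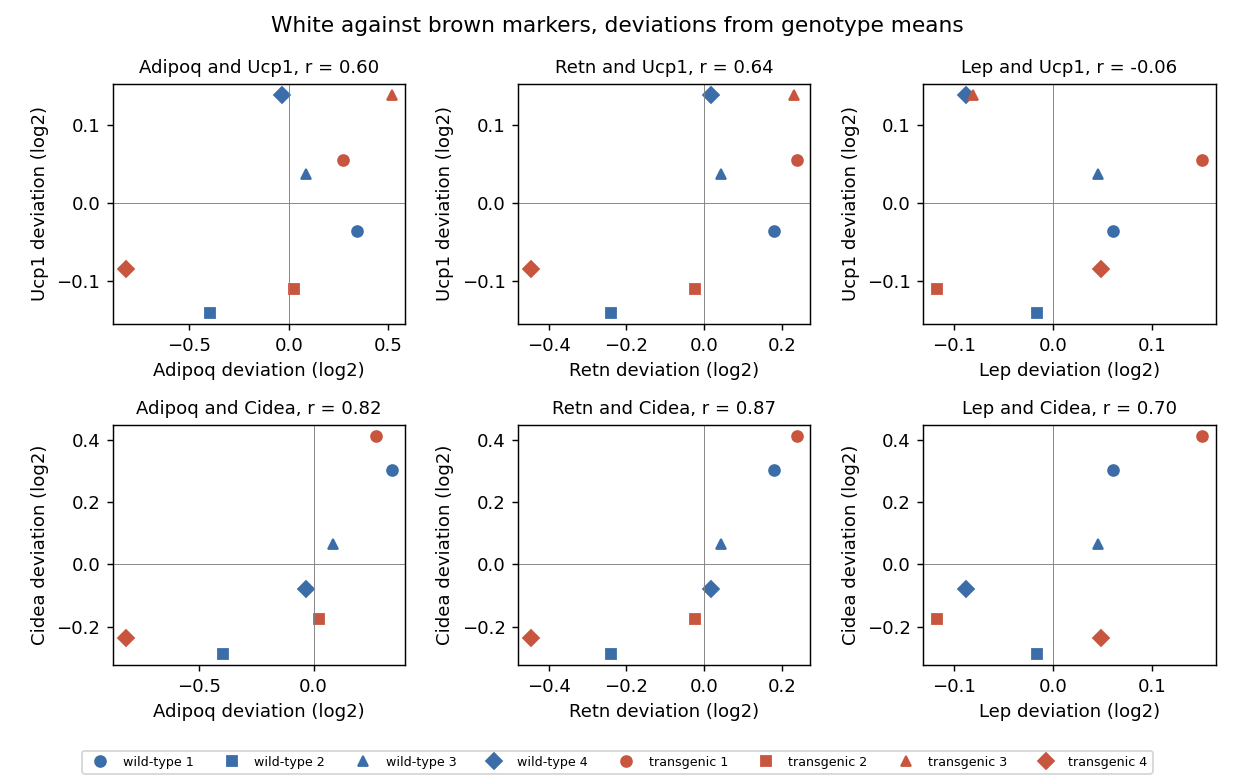
Deviation from the genotype mean (log2) of each white marker (horizontal axes) against each brown marker (vertical axes), 1 point per array, wild-type in blue and transgenic in red. The Cidea panels hold 7 arrays and rise from lower left to upper right, though no pair passed adjustment. The panel of Lep and Ucp1 (r = -0.06) shows no direction.

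The wider adipocyte genes, from lists that leave out the 10, were read in the same way. Of 26 tested genes of white and shared adipocyte function, 18 were lower and 8 higher in transgenic lungs, with a median difference of -0.08 against 0.00 over all probes, and 0 passed an adjusted p of 0.05 with limma (1 had an unadjusted p under 0.05). Thrsp, a regulator of lipid synthesis, was the 1 gene of the 26 lower without overlap (-0.30, SE 0.12), against 0.904% of all probes. The median r of the list with Adipoq was 0.16 and no gene reached 0.9, with Thrsp at 0.81. The 5 members of the list that varied most within genotypes were Mest (0.44, SE 0.30), Lpin1 (-0.49, SE 0.25), Npr3 (-0.07, SE 0.25), Orm1 (-0.22, SE 0.24) and Tusc5 (-0.27, SE 0.23), as log2 differences.

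These counts use the brightest probe of each gene, the rule applied to the 10 genes. When the brightest probe among those tested was taken instead, a choice made after the counts had been seen, 29 genes were tested and 20 were lower. Lpl, the lipase that frees fatty acids from lipoproteins, joined Thrsp (-0.78, SE 0.20, no overlap). That made 2 of the 29 genes lower without overlap, against 0.904% of all probes. The mean of the list per array then ranged from -0.106 to 0.036 in wild-type and from -0.164 to -0.111 in transgenic lungs. The groups nearly met, and genes flagged on an array were left out of its mean, so this is not read as a separation. By the brightest probe the mean ranged from -0.07 to 0.04 and from -0.14 to -0.06 with overlap.

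Of 18 tested brown adipocyte genes 13 were lower and 5 higher, with a median of -0.04, and 0 passed the adjusted threshold with limma (0 had an unadjusted p under 0.05). Kcnk3, a potassium channel, was higher without overlap (0.21, SE 0.10), 1 gene of the 18 against 1.07% of all probes. The 5 that varied most were Gyk (-0.01, SE 0.19), Ppara (-0.21, SE 0.16), Cox7a1 (-0.12, SE 0.16), Cpn2 (-0.06, SE 0.16) and Ebf2 (0.13, SE 0.15). Of the 22 listed brown adipocyte genes 18 were well above background on all 8 arrays. Otop1 and Zic1, which mark brown fat, were well above background on 0 arrays, and Elovl3 and Lhx8 on 2 each.

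Markers of other tissues were read beside these genes. Of 8 tested lipid synthesis genes 5 were lower, with Fasn, the fatty acid synthase, lower without overlap (-0.52, SE 0.17), against 0.904% of all probes. Like Lpl, Fasn had fewer than 7 values after flagging, which makes separation of the groups easier. Of 13 skeletal muscle genes 9 were lower (median -0.08). Ckm, the muscle creatine kinase, was the 1 gene of the 13 lower without overlap (-0.44, SE 0.15), against 0.904% of all probes. Of 8 cardiac genes 6 were lower (median -0.38), with the mean of the cardiac list at 0.12 to 0.75 in wild-type and -0.44 to 0.39 in transgenic lungs. Of 9 lung endothelial genes 8 were higher (median 0.35), among them Kdr at 0.63 (SE 0.20), and 1 was lower, Vwf at -0.19 (SE 0.18). By the brightest tested probe 9 of 12 were higher (median 0.24) and 3 lower, among these Tek, an angiopoietin receptor, at -0.44 (SE 0.14). Of 9 tested lung epithelial markers 7 were lower and 2 higher (median -0.27). The surfactant genes were at -0.60 (Sftpc, SE 0.41), -0.75 (Sftpa1, SE 0.29), -0.57 (Sftpb, SE 0.27) and -0.47 (Sftpd, SE 0.16). The 2 higher were Foxj1 (0.03, SE 0.21) and Scgb3a2 (0.88, SE 0.24), which the transgene itself carries, so the split and median include it. Alveolar macrophage genes split 5 and 5. Siglecf, a sialic acid receptor, was the 1 gene of these 10 higher without overlap (0.28, SE 0.10), against 1.07% of all probes. Thymus genes split 6 lower and 7 higher. By the brightest probe, 3 cardiac, 3 lung epithelial, 2 alveolar macrophage and 0 thymus genes had an unadjusted p under 0.05 with limma. The lipid synthesis, skeletal muscle and lung endothelial lists had 1 such gene each, against 683 of all 32645 probes. Of all these lists 0 genes passed an adjusted p of 0.05 with limma. The part of these cell types in the adipocyte values was not tested.

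A further search covered 2843 probes with enough spread outside the 10 members, and its highest r values over 8 arrays are a description. The 10 genes whose deviations were most like those of Adipoq were Cwh43 (r = 0.966), Gpr176 (0.926), 4930534B04Rik (0.924), 4921515E04Rik (0.920), Helb (0.888), Arid3a (0.885), BC048546 (0.875), Ercc6l (0.871), Btc (0.866) and Strbp (0.863). Those most like Ucp1 were Olfr1132 (0.951), Vsx1 (0.948), 1700015P03Rik (0.945), Tac4 (0.914), Rpgrip1 (0.901), E330019L11Rik (0.894), Sult1b1 (0.881), 1700040D17Rik (0.880), Phkg1 (0.875) and 1810030O07Rik (0.866), over 8 arrays each.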

How the data were processed

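Whole-lung RNA of 4 wild-type and 4 transgenic mice was measured. The authors deposited scanner output with median spot intensity and median background per channel, made by Agilent Feature Extraction (11.0.1.1 by the labels, 10.10.1.1 in the file headers), and a matrix of log2 ratios that equal the software's processed log2 ratios within 0.001 for 39811 of 39811 single-spot probes. The matrix columns had medians of -0.05 to 0.04. The matrix's direction, Cy5 over Cy3, follows from that match, and its probe filter is not given in the sources used here.

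Here median signals were background-corrected by normexp (offset 50, fitted per array and channel on unflagged spots), control and flagged spots were left out (1.72% to 6.46% of spots per array were flagged), ratios were loess-normalized within arrays and spots averaged, in R (4.3.3), using the package limma (3.58.1) and the table reader data.table (1.17.8). Probes were tested by limma, two-sided, with Benjamini-Hochberg adjustment when well above background in Cy5 on at least 4 arrays with at least 2 values per genotype. The methods name a t-test, which was run as an alternative. Marker pairs were tested by two-sided exact permutation of arrays within genotypes. Each gene is given by its brightest probe. Symbols came from the matrix for 33870 probes and by RefSeq accession for 933. The genes named are the 10 members, the 5 most variable tested genes of the white and of the brown list, and the 10 genes most like Adipoq and most like Ucp1 with an SD of at least 0.3. Thrsp, Lpl, Kcnk3, Fasn, Ckm, Siglecf, Kdr, Vwf, Tek, Foxj1, the surfactant genes and the genes at background were named after their values were seen.

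The 10 genes and all lists were chosen with earlier results of these data known. The set of outlier flags was settled after several definitions had been run and their results seen, and the one kept (spot non-uniformity, spot population and background non-uniformity in either channel) is the one whose counts matched an earlier processing of these files. The rule that at least 1 in every 2 spots of a probe be well above background was settled in the same way. The other definitions are reported as alternatives. Scripts were tested on simulated data. Plots used matplotlib (3.10.9) under Python (3.11.15). Of the alternatives, 23 were listed at the outset and 5 were added after seeing the data.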

Additional observations from a re-analysis of the deposited data

How the results depend on the processing

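Fabp4, Adipoq, Car3, Cfd, Plin1, Retn and Cidec were lower in transgenic lungs under all 22 alternatives that gave a difference, from -1.06 to -0.50 for Adipoq, -1.58 to -0.78 for Car3, -1.12 to -0.28 for Fabp4, -1.07 to -0.09 for Cfd and -0.49 to -0.09 for Retn. Ucp1 was higher under 20 of the 22, and Cidea was lower under 14. No probe passed an adjusted p of 0.05 under any alternative, and 0 of 6 white and brown pairs passed in any of 20 tested ones, with adjusted p between 0.0833 and 1. In 2 of the 20, the scan day as a term and the fit with 2 arrays left out, the arrangements allow no adjusted p under 0.05 (0.125 and 0.0556 at the lowest), so these say nothing about stability.

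Lower and higher probes past 1.5-fold with an unadjusted p under 0.05 numbered 105 and 116 with no offset, 184 and 187 from processed signals, 179 and 181 in the authors' matrix, 11 and 16 by the methods' t-test, and 64 and 66 under the replicate block. Lower probes numbered 76 with median centring and 52 in the sample channel alone. Higher probes numbered 10 with normexp fitted on all spots, 11 with feature outlier flags only and 86 with the slide as a block. Leaving out 1 array gave 27 to 89 lower (59 without transgenic replicate 3, 89 without wild-type replicate 4) and 20 to 104 higher (104 without transgenic replicate 4, 78 and 20 without wild-type replicates 4 and 3, 25 without transgenic replicate 1). Leaving out both transgenic replicate 4 and wild-type replicate 1, a pair chosen after seeing the data, gave 59 and 91.

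The median r among Fabp4, Adipoq, Car3, Cfd, Plin1 and Retn (0.922) was 0.827 with normexp fitted on all spots, 0.83 with feature outlier flags only, 0.809 in the sample channel, 0.802 without those 2 arrays, and 0.749 to 0.939 with 1 array left out. Lep with Ucp1 (-0.063) turned to 0.769 with feature outlier flags only, 0.766 with normexp on all spots, 0.62 with median centring, 0.215 in the sample channel, 0.219 with the slide as a block, 0.025 with flagged spots kept, 0.064 without the 2 arrays, and -0.414 to 0.227 with 1 array left out (0.227 for wild-type replicate 4, 0.194 and 0.016 for transgenic replicates 3 and 4). With feature outlier flags only, the first definition run, Adipoq with Ucp1 was 0.183 and Retn with Ucp1 0.057. Adipoq with Ucp1 was -0.114 without the genotype term. Lep with Cidea was -0.651 with the replicate block and -0.055 with the slide as a block. The causes were not tested. Deviations of arrays with the same replicate number correlated with r = 0.32, 0.25, -0.08 and -0.21, so the numbers were not taken as pairs. Replicates 1 and 2 also shared slides, and over the 4 slides r was 0.30, 0.32, 0.25 and 0.08. The exact tests of marker pairs do not take the slide into account.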
